A study of Mus musculus with 13 samples.

Results

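The genes described here encode the proteasome, the protease that degrades ubiquitin-tagged proteins in the cytosol and nucleus. They were taken from a gene-level RNA-seq table of C2C12, an established line of mouse muscle precursor cells that can be induced to form myotubes in low serum. Members were the rows whose symbol starts with Psma, Psmb, Psmc or Psmd and a digit, without the 3 immunoproteasome genes Psmb8, Psmb9 and Psmb10. The rule took 37 of 23236 rows: 31 subunits of the 20S core and 19S particle, 2 tissue-restricted 20S subunits, 3 assembly chaperones and Psmc3ip. Psmc3ip was taken by the start of its symbol, and encodes a recombination cofactor and not a proteasome subunit. The series holds 13 samples, and the values below come from 2 RNA-seq libraries of cells labelled as myoblasts, siNC and siLinc-Yy1. By the usual reading of these names, siNC is a control siRNA and siLinc-Yy1 an siRNA against Linc-Yy1, a noncoding RNA transcribed beside the transcription factor gene Yy1. The labels name no genetic alteration, siRNA dose or time, and growth medium held fetal bovine serum.

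The 26S proteasome consists of a barrel, the 20S core, and a cap, the 19S regulatory particle. In the core, outer rings of alpha subunits gate the entrance and inner rings of beta subunits carry the peptidase sites. The cap has a base with a ring of ATPases that unfold substrates, and a lid that removes ubiquitin. Within a ring each subunit is present in the same number. In mammalian cells transcription of the subunit genes is raised together by the factor NRF1, encoded by Nfe2l1, when proteasome activity is short. In muscle the ubiquitin-proteasome route removes regulatory factors of myoblasts and degrades contractile protein during atrophy.

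There was 1 library per condition. No difference could be set against replicate error or tested, and the values describe these libraries, not the conditions. Levels are in FPKM, by its usual definition fragments divided by transcript length in kilobases and by the mapped total of the library. Genes can be set side by side on it, apart from errors of single genes, such as reads that fit several places. The scaling applied between these libraries is not given in the sources used here. A difference is the log2 ratio of siLinc-Yy1 to siNC after 1 FPKM was added to both values, a scale that understates differences of low genes. A gene was called only at 2-fold or more, among the 11792 rows with a mean of at least 1 FPKM. Steps of low values in single-exon receptor rows put the depth of siLinc-Yy1 at 0.715 of that of siNC, if no further scaling between the libraries entered the FPKM. Only 55.4% of such rows in siNC and 46.7% in siLinc-Yy1 lay on whole steps. If a step is 1 fragment, a transcript of 1 kb at 50 FPKM rests on about 2980 fragments in siNC and 2132 in siLinc-Yy1. Counting error alone then gives a log2 difference a 95% interval of 0.080 to either side. The targeted transcript lincYy1 stood at 0.360 FPKM in siNC against 0.227 FPKM in siLinc-Yy1, with a q-value of 0.878 in the authors' deposited table, so its level does not check the label. The myoblast markers Myod1 (62.5 and 67.0 FPKM) and Cdh15 (98.4 and 99.0 FPKM) were present, Myf6 was below 1 FPKM, and 13 of 16 markers of other cell types were below 1 FPKM in both libraries. The other 3 were Sox9, Cd68 and Fabp4, and the 16 summed to 35.0 FPKM in siNC against 39.9 FPKM in siLinc-Yy1. Their part in the results was not tested.

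Proteasome subunit genes were expressed at high levels in both libraries. All 31 subunits of the core and the 19S particle stood between 54.0 and 201 FPKM in siNC and between 45.6 and 254 FPKM in siLinc-Yy1, where the median gene past the filter had 13.8 and 13.4 FPKM. Of the 31 subunits, 30 had a higher value in siLinc-Yy1, but under rescaling to equal summed FPKM and less the running median described below their median changed sign. None of the 35 members past the filter differed 2-fold, a size reached by 1.57% of all rows (1.39% higher and 0.178% lower), and none differed 1.5-fold, a size reached by 3.8% of all rows. In bulk RNA, fewer cells that express a gene and less of its RNA per cell cannot be told apart. The authors' deposited table called no member either, against 1.62% of the 14366 rows it tested.

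**Figure D1:**
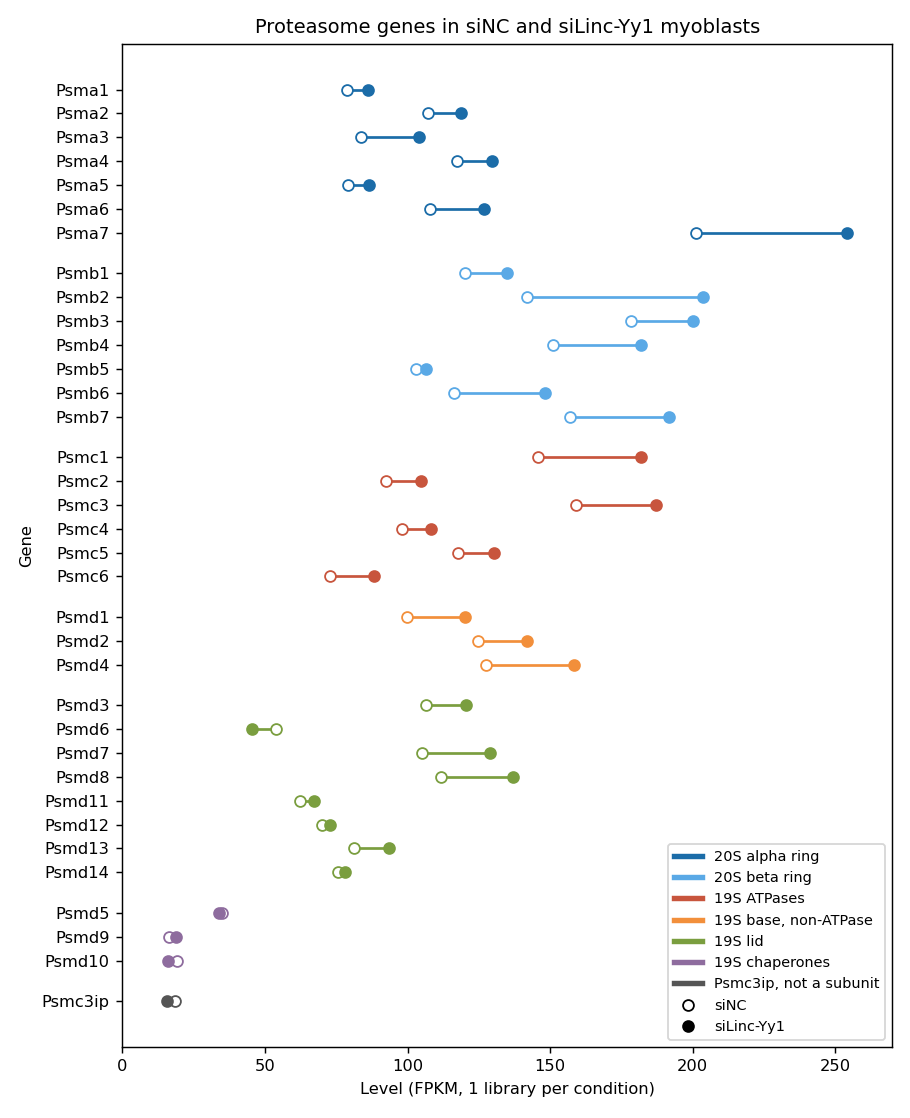
Level in FPKM (x axis) of the 35 proteasome genes past the filter, 1 row per gene, with siNC as open and siLinc-Yy1 as filled circles and colours for the parts of the particle. Psma7 is highest at 201 and 254 FPKM, Psmd6 is the 1 subunit with the lower value in siLinc-Yy1 at the authors' scaling, and the chaperones and Psmc3ip lie below 40 FPKM.

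The alpha ring gates the core. Psma7 was the most abundant proteasome transcript, at 201 FPKM in siNC against 254 FPKM in siLinc-Yy1 (chromosome 2, 179771081 to 179777107, mm9). Psma4, whose N-terminal tail helps to close the gate, measured 117 and 130 FPKM. The other alpha genes ran from Psma1 (78.7 and 86.3 FPKM) and Psma5 (79.1 and 86.4 FPKM) through Psma3 (83.7 and 104 FPKM) to Psma2 (107 and 119 FPKM) and Psma6 (108 and 127 FPKM). Proteins that occupy the ring in equal number thus came from transcripts that differed 2.56-fold in siNC and 2.94-fold in siLinc-Yy1 between Psma7 and Psma1. All 7 were higher in siLinc-Yy1 at the authors' scaling, by 0.13 (Psma5) to 0.33 (Psma7) on the log2 scale, with a median of 0.15. Less the running median, 6 of the 7 were below 0.

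The beta ring holds the peptidase sites. Psmb5, the chymotrypsin-like subunit, stood at 103 FPKM in siNC against 107 FPKM in siLinc-Yy1 (chromosome 14, 55232957 to 55236832, mm9). Psmb6, the caspase-like subunit, measured 116 and 148 FPKM, and Psmb7, the trypsin-like subunit, 157 and 192 FPKM. The catalytic subunits therefore differed among themselves, with Psmb5 nearly level between the libraries (0.048 on the log2 scale) and Psmb6 at 0.35. Psmb2, a beta subunit without peptidase activity, had the largest difference of all members at the authors' scaling (chromosome 4, 126354887 to 126386959, mm9). It stood at 142 FPKM in siNC against 204 FPKM in siLinc-Yy1, a ratio of 1.43 and a log2 difference of 0.52. In the authors' deposited table its p-value was 0.00745 and its q-value 0.215, and no other member had a p-value below 0.05. The noncatalytic subunits Psmb1 (120 and 135 FPKM), Psmb3 (178 and 200.1 FPKM) and Psmb4 (151 and 182 FPKM) differed by 0.16 to 0.27. Less the running median, 5 of the 7 beta genes were below 0. On that scale Psmb2 stood at 0.18, smaller in size than Psmd6 at -0.33. Levels in the beta ring differed 1.73-fold in siNC between Psmb3 and Psmb5. The thymus subunit Psmb11, which neighbours Psmb5 on chromosome 14, measured 0.341 and 0.446 FPKM, and the testis subunit Psma8 0.0236 and 0.0165 FPKM, so both fell short of the filter.

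The ATPases of the 19S base unfold the substrate and thread it into the core. All 6 were higher in siLinc-Yy1 at the authors' scaling, with a median of 0.21, and 5 of the 6 were below the running median. Psmc3 (159 and 187 FPKM) and Psmc1 (146 and 182 FPKM) were the most abundant, and Psmc6 (73.0 and 88.4 FPKM) the least. Psmc2 (92.3 and 105 FPKM), Psmc4 (98.1 and 108 FPKM) and Psmc5 (118 and 130 FPKM) lay between them, so the ring spanned a 2.18-fold range in siNC. The differences were close together, from 0.14 in Psmc4 to 0.32 in Psmc1. Of the base subunits that are no ATPases, Psmd1, a scaffold, measured 99.8 and 120 FPKM. Psmd2, where ubiquitin-like shuttle proteins dock, stood at 125 and 142 FPKM, and Psmd4, a ubiquitin receptor, at 128 and 158 FPKM. Their median difference was 0.27, and 0.012 less the running median.

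The lid, taken here as its 8 genes with a Psm name, was the least abundant part. Its median was 78.4 FPKM in siNC against 85.8 FPKM in siLinc-Yy1. At the authors' scaling its differences had the widest range of the parts of the particle. Psmd14, the deubiquitinase that removes the ubiquitin chain, measured 75.8 and 78.1 FPKM, and its partner Psmd7 105 and 129 FPKM. Psmd6 was lower in siLinc-Yy1, at 54.0 FPKM in siNC against 45.6 FPKM in siLinc-Yy1 (chromosome 14, 14944699 to 14953418, mm9). Its log2 difference was -0.24, the only one below 0 among the 31 subunits at the authors' scaling, and -0.33 less the running median, the lowest of all members. In the authors' deposited table its p-value was 0.173. Psmd8 (112 and 137 FPKM) and Psmd7 had the largest positive differences of these 8 lid genes, both 0.29. Psmd3 measured 107 and 121 FPKM, Psmd13 81.1 and 93.4 FPKM, Psmd12 69.9 and 73.0 FPKM, and Psmd11, which clamps the lid to the core, 62.5 and 67.2 FPKM. The median over the 8 lid genes was 0.14.

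Set side by side, the 20S core and the 19S particle had similar differences. The 14 core genes had a median of 0.20, from 0.048 (Psmb5) to 0.52 (Psmb2). The 17 Psm-named genes of the 19S particle had a median of 0.19, from -0.24 (Psmd6) to 0.32 (Psmc1). These ranges overlap. The 19S subunits without a Psm name, Shfm1 (0.43) and Adrm1 (0.13), are left out of the medians, ranges and shares given here. The core genes were the more abundant, with a median of 117 FPKM against 99.8 FPKM in siNC and 132 FPKM against 120 FPKM in siLinc-Yy1. The core held 50.6% of the summed FPKM of the 31 subunits in siNC and 51.3% in siLinc-Yy1. The order of the subunits was nearly the same in both libraries (Spearman rho 0.98 across 31 genes, a description, since the genes share each library and its scaling).

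The chaperones that carry Psmd names assemble the 19S base and do not stay in the finished particle. They were less abundant than any subunit, and were split in direction. Psmd5 stood at 35.1 FPKM in siNC against 33.9 FPKM in siLinc-Yy1, Psmd10, also known as gankyrin, at 19.03 and 15.9 FPKM, and Psmd9 at 16.5 and 18.9 FPKM. Psmc3ip measured 18.6 and 15.7 FPKM, and its row shares a locus with the transcription factor gene Mlx. Locus-sharing with another row also concerns Psma3, Psma4, Psmb5 and Psmd1, whose values are less certain for that reason. The same holds for Psme1, Rps27a and Ngly1 among the related genes given with values below. RefSeq lists pseudogenes of Psma5, Psmb5, Psmb6 and Psmb7, and how reads that fit several places were assigned is not given in the sources used here.

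The small positive differences of the subunits went together with their level. Among all rows past the filter, 45.4% had a value above 0 and the median was -0.021, against 31 of 35 members and a median of 0.18. Rows of similar level, however, were also mostly above 0. Between 100 and 150 FPKM, 284 other rows had a median of 0.26 and 96.5% of them were above 0, while the 14 members in that band had a median of 0.18. Between 50 and 100 FPKM the medians were 0.15 for 1011 other rows and 0.13 for 9 members. Between 150 and 200 FPKM they were 0.34 for 143 other rows and 0.28 for 6 members. The few members at lower levels lay further from other rows. Between 20 and 50 FPKM the medians were 0.026 for 2733 other rows and -0.14 for Psmd5 and Psmd6. Between 10 and 20 FPKM they were -0.058 for 2516 other rows and -0.23 for Psmc3ip, Psmd9 and Psmd10. Across the 31 subunits the difference increased with the mean level (Spearman rho 0.64, a description without a test, with both quantities taken from the same libraries). Less a running median of all rows ordered by level, 10 of the 35 members were above 0 and 25 below, where 49.9% of all rows were above, and the median of the members was -0.066. Psmd9 (0.24), Psmb2 (0.18), Psma3 (0.098) and Psmc6 (0.092) lay highest on this scale, and Psmd6 (-0.33), Psmd10 (-0.20), Psmb3 (-0.19) and Psmc3ip (-0.19) lowest.

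**Figure D2:**
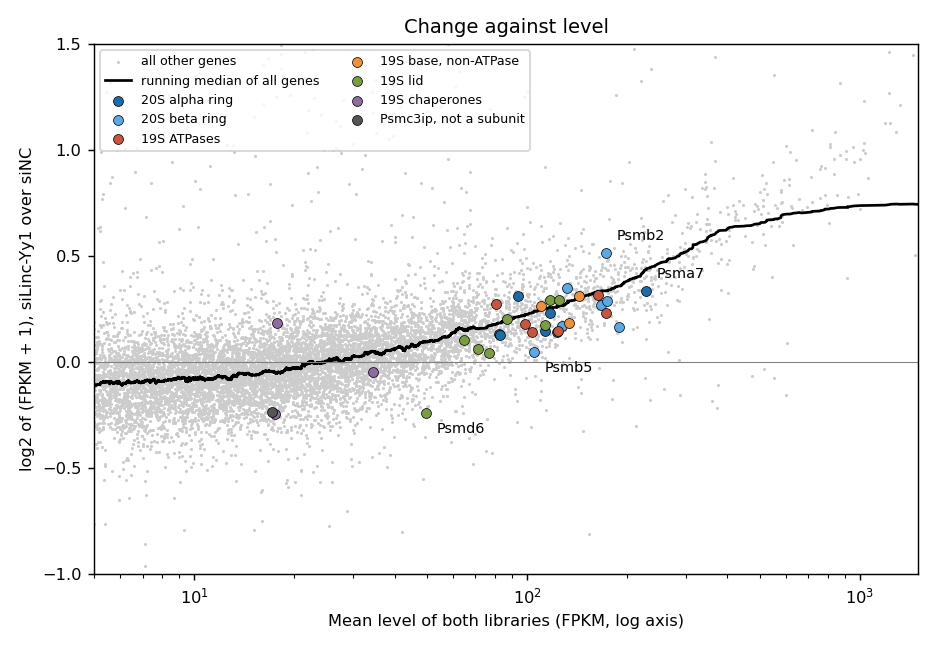
Log2 difference of siLinc-Yy1 over siNC (y axis, 1 FPKM added) against the mean FPKM of both libraries (log x axis), with all other genes in grey, their running median as a line and proteasome genes in colour. Of the 31 subunits 22 lie below the line and 9 above it, with Psmb2 at 0.52 among the latter and Psmd6 at -0.24 among the former.

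**Figure D3:**
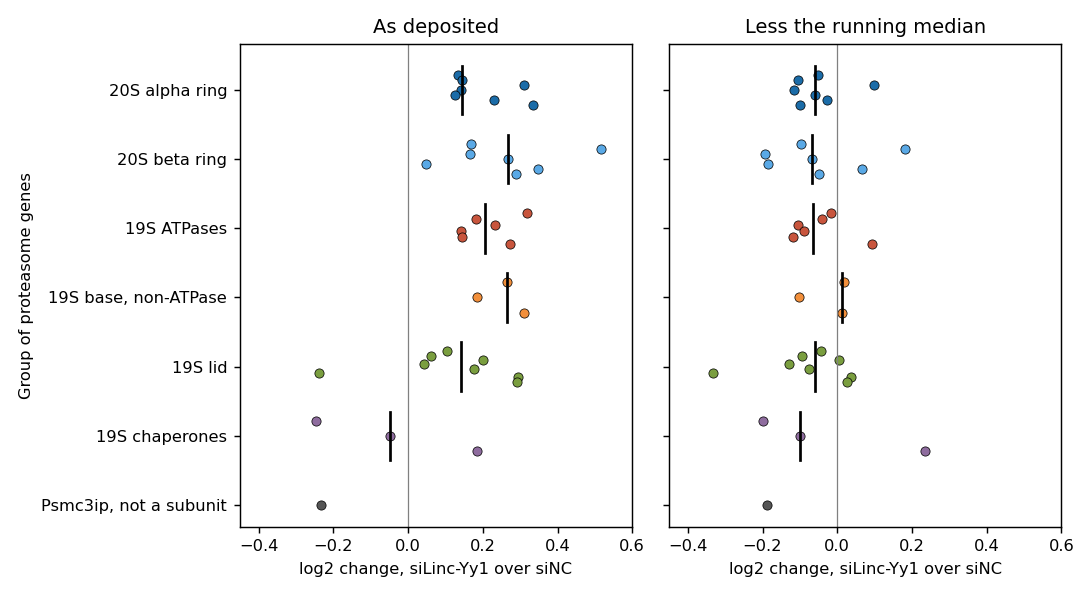
Log2 difference of siLinc-Yy1 over siNC per gene (points) and median (bars) for each part of the proteasome, at the authors' scaling on the left and less the running median of all genes on the right. The alpha ring, beta ring, ATPases and lid have medians of 0.15, 0.27, 0.21 and 0.14 on the left and of -0.059, -0.066, -0.065 and -0.059 on the right.

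The 31 subunits summed to 3448 FPKM in siNC against 4038 FPKM in siLinc-Yy1, a ratio of 1.17. The sum over all rows of the table differed more, with a ratio of 1.25. The subunits accordingly made up 0.943% of all FPKM in siNC and 0.883% in siLinc-Yy1. At equal summed FPKM the median of the members was -0.14, and 28 of the 35 members had the opposite sign from that at the authors' scaling.

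Promoters of the members were looked at for motifs of factors tied to proteasome genes or to the study. RefSeq windows from 250 bases before to 50 bases after the start (GRCm38.p6) were given for 30 of the 37 members. None was given for Psma8, Psmb1, Psmb2, Psmb7, Psmc3, Psmd3 and Psmd7. Among the 30 were Psmb11, which fell short of the filter, the chaperones Psmd5, Psmd9 and Psmd10, and Psmc3ip, so the shares below are not those of subunits alone. The core of the Yy1 motif, GCCATNTT on either strand, was found in 6 of the 30 members (20%), in 10.4% of 8218 genes of the table past the filter and in 6.05% of 32851 windows of that length. The 6 were Psma2, Psma4, Psmb5, Psmb6, Psmc5 and Psmd8. On the opposite strand these letters read AANATGGC and hold an ATG, so a match just after the start can coincide with a start codon. In the bases before the start alone, only Psma4 and Psmb5 held a match, 6.67% of members against 5.34% of genes past the filter. The members with a match had a median log2 difference of 0.14 and those without 0.17.

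The antioxidant response element, which NRF1 and NRF2 bind, was searched in both forms. TGACNNNGC was found in 5 of 30 members (16.7%, against 17.1% of genes past the filter and 12.4% of windows): Psmb5, Psmb6, Psmc6, Psmd9 and Psmd12. TGAGNNNGC was found in 12 of 30 (40.0%, against 23.1% and 17.6%). The NF-Y box CCAAT was in 13 of 30 (43.3%, against 43.4% and 37.4%), and the ETS core CCGGAAG in 11 of 30 (36.7%, against 20.8% and 8.86%). In the bases before the start alone, TGAGNNNGC was in 9 of 30 (30%, against 19.2% of genes past the filter). CCGGAAG was there in 10 (33.3%, against 16.4%), TGACNNNGC in 5 (16.7%, against 14.0%) and CCAAT in 13 (43.3%, against 40.9%). Each motif was searched alone, on both strands, and matches of different motifs could overlap. Members with and without a match differed little in their log2 differences, with medians of 0.16 and 0.14 for the NF-Y box and of 0.19 and 0.14 for the ETS core. Psmb5 and Psmb6 were the 2 members that held both GCCATNTT and TGACNNNGC, although their own differences were far apart (0.048 and 0.35).

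Their windows are shown first, with matches to both motifs on either strand in capitals, followed by Psmc5 and Psmd8 with GCCATNTT in capitals, as an ATPase and a lid gene with matches next to the start, and by Psmd6, the subunit with the lower value in siLinc-Yy1, with its CCGGAAG match in capitals. All run 5′ to 3′ along the gene. Psmb5 is on the minus strand at chr14:54617946-54618245, Psmb6 on the plus strand at chr11:70525107-70525406, Psmc5 on the plus strand at chr11:106255935-106256234, Psmd8 on the minus strand at chr7:29180624-29180923 and Psmd6 on the minus strand at chr14:14120896-14121195 (GRCm38.p6).
Psmb5: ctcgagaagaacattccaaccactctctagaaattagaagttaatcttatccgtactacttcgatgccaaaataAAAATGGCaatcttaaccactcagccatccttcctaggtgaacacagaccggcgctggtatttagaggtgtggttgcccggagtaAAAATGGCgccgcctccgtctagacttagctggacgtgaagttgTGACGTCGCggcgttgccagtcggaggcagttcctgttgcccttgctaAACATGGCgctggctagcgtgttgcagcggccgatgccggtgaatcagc
Psmb6: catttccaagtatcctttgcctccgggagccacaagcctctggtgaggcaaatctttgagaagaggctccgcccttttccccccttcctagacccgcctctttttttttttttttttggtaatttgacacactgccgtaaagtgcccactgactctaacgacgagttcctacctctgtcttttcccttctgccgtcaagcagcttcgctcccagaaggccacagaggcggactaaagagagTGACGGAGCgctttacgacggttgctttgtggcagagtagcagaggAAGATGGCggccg
Psmc5: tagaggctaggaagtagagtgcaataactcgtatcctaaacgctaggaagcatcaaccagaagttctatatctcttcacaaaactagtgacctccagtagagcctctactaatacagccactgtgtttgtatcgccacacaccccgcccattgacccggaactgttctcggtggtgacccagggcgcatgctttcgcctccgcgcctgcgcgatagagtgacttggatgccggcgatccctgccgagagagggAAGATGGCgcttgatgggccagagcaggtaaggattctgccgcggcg
Psmd8: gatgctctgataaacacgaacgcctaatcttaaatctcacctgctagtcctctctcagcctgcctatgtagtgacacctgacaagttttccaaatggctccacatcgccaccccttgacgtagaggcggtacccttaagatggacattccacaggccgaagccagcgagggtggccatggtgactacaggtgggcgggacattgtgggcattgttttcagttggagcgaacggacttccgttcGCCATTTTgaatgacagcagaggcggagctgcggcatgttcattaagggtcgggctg
Psmd6: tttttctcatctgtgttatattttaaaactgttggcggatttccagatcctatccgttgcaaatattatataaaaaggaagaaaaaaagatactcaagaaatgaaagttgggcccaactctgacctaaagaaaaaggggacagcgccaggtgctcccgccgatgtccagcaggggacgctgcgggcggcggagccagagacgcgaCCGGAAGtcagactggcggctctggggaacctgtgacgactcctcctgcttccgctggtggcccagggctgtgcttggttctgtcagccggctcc
Psmb5 holds GCCATNTT 3 times, with first bases at -176, -91 and 2 from the start, and Psmb6 once, at 38. A match describes letters and shows no binding, and no binding data were used here.

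**Figure D4:**
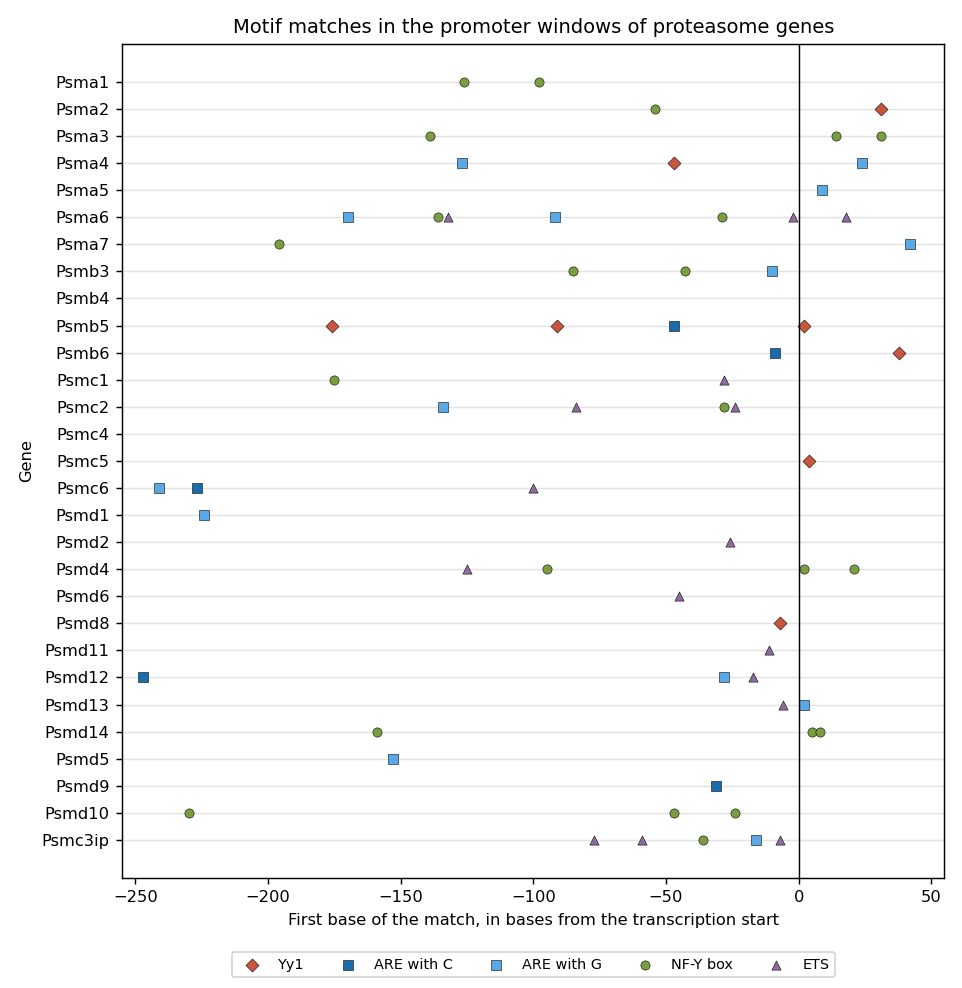
Positions of motif matches (x axis, bases from the transcription start) in the promoter windows of 29 proteasome genes past the filter, 1 row per gene, with both windows of Psma6 and Psmc2 drawn on 1 row. Of the Yy1 matches, those of Psma2, Psmb6, Psmc5 and 1 of Psmb5 begin after the start, and the others before it.

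Genes that build, cap or feed the proteasome did not share 1 direction, and neither did rows at large. Of all rows past the filter 45.4% were above 0. Rows other than members were above 0 in 32.0% between 10 and 20 FPKM and in 58.7% between 20 and 50 FPKM. The subunits without a Psm name, Shfm1 (124 and 167 FPKM) and the ubiquitin receptor Adrm1 (83.3 and 91.0 FPKM), were higher in siLinc-Yy1 at the authors' scaling, and less the running median stood at 0.13 and -0.070. Of the 20S assembly factors, Pomp measured 108 and 112 FPKM, Psmg4 36.3 and 40.2 FPKM, Psmg2 28.1 and 31.4 FPKM, Psmg1 36.5 and 35.7 FPKM and Psmg3 16.1 and 14.4 FPKM, with a list median of 0.048. The immunoproteasome subunits replace the catalytic beta subunits after interferon exposure. Psmb8 measured 5.59 and 6.24 FPKM, Psmb9 2.69 and 2.08 FPKM and Psmb10 24.9 and 28.3 FPKM, all below Psmb5, Psmb6 and Psmb7. The activator subunits Psme1 and Psme2 measured 84.1 and 111 FPKM and 98.4 and 116 FPKM. Psme3 stood at 63.5 and 68.1 FPKM, Psme4 at 19.8 and 17.8 FPKM and the inhibitor Psmf1 at 12.9 and 13.5 FPKM.

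Among the regulators, Nfe2l1, the gene of NRF1, had the largest difference of the 10 genes listed, at 63.2 FPKM in siNC against 93.2 FPKM in siLinc-Yy1. Its log2 difference was 0.55, and 0.38 less the running median, but the authors' deposited table gave a q-value of 0.607. Nfe2l2, the gene of NRF2, measured 60.9 and 74.5 FPKM, Ngly1, which NRF1 needs for its activation, 7.18 and 6.08 FPKM, and Nfya, a subunit of NF-Y, 17.2 and 15.0 FPKM. The list as a whole had 6 members above 0 and 4 below, with a median of 0.050. Of the 13 associated enzymes and shuttles reported, 6 were above 0 and 7 below. Among all rows past the filter 45.4% were above 0. The shuttle gene Rad23b (89.4 and 133 FPKM) had the largest difference, 0.57, then the shuttle gene Ubqln1 (54.6 and 63.1 FPKM) and the unfoldase Vcp (159 and 181 FPKM). Less the running median Rad23b stood at 0.31, Ubqln1 at 0.079 and Vcp at -0.15. The deubiquitinase Uchl5 (23.4 and 21.2 FPKM) was lower in siLinc-Yy1 at the authors' scaling.

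The genes that supply and activate ubiquitin were likewise mixed. Ubb, a polyubiquitin gene, was abundant, at 485 FPKM in siNC against 464 FPKM in siLinc-Yy1. Its log2 difference was -0.065, with a p-value of 0.849 in the authors' Cuffdiff test, and -0.71 less the running median. Rows are sparse at such levels, with 174 rows other than members between 200 and 400 FPKM. The running median at Ubb therefore draws on rows of a wide span of levels. Rps27a, which encodes ubiquitin fused to a ribosomal protein, measured 196 and 233 FPKM. The activating enzyme Uba1 measured 157 and 201 FPKM, and Uba6 6.01 and 5.41 FPKM. Of these 4 genes, 2 were above 0 and 2 below at the authors' scaling, where 45.4% of all rows past the filter were above 0.

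**Figure D5:**
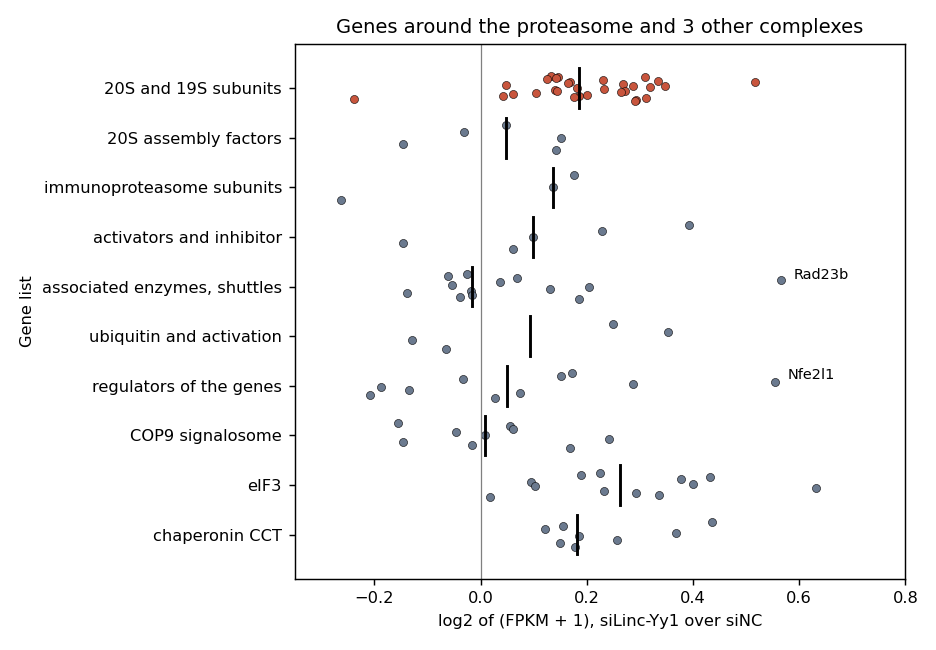
Log2 difference of siLinc-Yy1 over siNC at the authors' scaling (x axis, 1 FPKM added), per gene (points) and list median (bars), for proteasome subunits, related lists and 3 other complexes. The subunits have a median of 0.19, near the chaperonin CCT at 0.18, and Rad23b and Nfe2l1 stand at 0.57 and 0.55.

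Other complexes of many subunits gave a scale for these values. The COP9 signalosome, which resembles the lid in build, had a median of 0.0078 over 9 genes at a median of 58.4 FPKM in siNC. The translation initiation complex eIF3, also related to the lid, had 0.26 over 12 genes at 127 FPKM, and the chaperonin CCT 0.18 over 8 genes at 118 FPKM. Less the running median they stood at -0.086, -0.033 and -0.078, and the proteasome subunits at -0.059. Whether the complexes differ from each other was not tested.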

How the data were processed

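RNA of C2C12 myoblasts was selected for poly(A) and sequenced, per the labels' protocols. The FPKM values are those the authors deposited per gene and condition in a Cuffdiff table, per the file headers. The 2 files hold the same table, and 1 of them was used. The p-value and q-value of a row come from the authors' Cuffdiff test between them, per the file headers. The columns of FPKM follow the order in which the header names siNC and siLinc-Yy1. Cuffdiff 2.0.4, Cufflinks 2.1.1, TopHat2 2.0.4 and the mm9 build are named in the submitters' processing notes. Scaling between libraries, annotation and strand are steps not given in the sources used here. Locus starts were taken to count from 0 and raised by 1 for printing.

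Computed here, with Python 3.11.15, pandas 2.3.3 and scipy 1.17.1, were log2 differences with a pseudocount of 1 FPKM, among rows with a mean of at least 1 FPKM, called at 2-fold. With 1 library per condition no p-value was computed. Low FPKM values were whole multiples of 1 step, within 0.02, in 55.4% of 630 receptor rows of siNC and 46.7% of 531 of siLinc-Yy1, so no count test was run. The size rule and the running median were tried on simulated data with planted changes larger than any difference of the members. That trial does not bear on differences of the members' size. The alternatives tried were 0.1 or 5 FPKM as pseudocount, no filter or a mean of 5 FPKM, equal summed FPKM, centring on the median, subtraction of the running median, status OK alone, no rows with a shared locus, a fold of 1.5, the authors' calls and motifs before the start alone. The members, lists and alternatives were chosen with earlier results of these data known. All members are named, and of the other lists all genes or, in lists of more than 6, at most the 4 with the largest difference. COP9, eIF3 and CCT are given by their medians alone. Fbxo32 and Trim63, in the closing section and outside that rule, and the markers were picked after their values were seen. Some genes of the lists are not reported here and stand in no list value. The libraries labelled GM and DM and the ChIP-seq libraries were not analysed here.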

Additional observations from a re-analysis of the deposited data

How the results depend on the processing

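Under both pseudocounts, both filters, centring on the median, status OK alone and without rows that share a locus, the medians of the members, the core, the 19S particle, its ATPases and its lid stayed above 0 and moved by less than 0.1, and no member that remained changed sign. At equal summed FPKM these 5 medians turned to -0.14, -0.12, -0.13, -0.11 and -0.18, with 3 members above 0 and 32 below. Less the running median they turned to -0.066, -0.063, -0.043, -0.065 and -0.059, with 10 members above 0 and 25 below. No setting called a member. Over all genes, 164 were called higher and 21 lower. The counts became 109 and 7 with a pseudocount of 5 FPKM, 89 and 38 at equal summed FPKM, 79 and 7 without shared loci, and 387 and 61 at 1.5-fold. Called lower were 39 without a filter, 7 at a mean of at least 5 FPKM and 47 in the authors' deposited table. With bases before the start alone, 2 members held the Yy1 motif. No paired analysis was possible because each condition has 1 library, and no library could be left out. Depth limits single low rows such as Psma8 more than the subunits.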

Other observations

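Ubiquitin ligases of muscle feed contractile and other proteins to the proteasome in atrophy. Fbxo32, also known as atrogin-1, stood at 4.48 FPKM in siNC against 3.74 FPKM in siLinc-Yy1, and Trim63, also known as MuRF1, at 0.557 and 0.526 FPKM, below the filter. Nedd4, a ligase of broad expression, stood far above them at 134 and 175 FPKM. Of the 6 listed ligases past the filter, 2 were above 0 at the authors' scaling and 4 below, with Fbxo30 lowest (6.38 and 5.14 FPKM). Among all rows past the filter 45.4% were above 0. The list median was -0.21, and -0.11 less the running median.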
